A study of Homo sapiens with 6 samples.

Results

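A set of 10 human genes whose products HIV borrows from its host cell were followed on whole-transcript arrays of HEK293 cells, a transformed line of human embryonic kidney origin. They are PSIP1, TNPO3, CPSF6, NUP153, RANBP2, CCNT1, CDK9, PPIA, TSG101 and XPO1, 10 of the 18417 genes with a symbol of their own on the array. They were chosen by name and not by their values, though with earlier results of these data known. The study asked which mediators accompany an anti-HIV effect seen after transfection of an empty plasmid, and hybridised 3 control and 3 treatment samples, 1 per array. By their source labels, controls carried a transient vector and treated cells a Neo vector; by the design text, the controls were untreated and the others received the plasmid pCMV9. Because these accounts differ, the groups keep the names control and treatment. All 6 samples are the 1 cell line, no label names an infection of these cells or a time after transfection, and no label says whether replicates were separate cultures. The p-values therefore reflect array-to-array spread alone, and that spread may be technical.

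HIV carries few enzymes of its own and depends on cellular proteins at nearly every step after entry. The capsid meets cyclophilin A in the cytoplasm, passes the nuclear pore with the help of nucleoporins and CPSF6, and the integrase is then tethered to chromatin by the PSIP1 product LEDGF. Transcription of the provirus needs the kinase P-TEFb, export of unspliced viral RNA needs exportin 1, and release of the particle needs the ESCRT membrane-scission machinery. These genes serve basic functions in uninfected cells and are widely expressed.

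No cofactor gene passed the test between the groups. The 10 log2 changes, treatment minus control on the scale of log2(intensity + 16), lay between -0.23 for TNPO3 and 0.17 for TSG101, with a median of -0.05, against 0.01 over all 33297 transcript clusters (sets of probes for 1 transcribed locus). Of the 10, 0 passed limma at an adjusted p under 0.05 and 0 had an unadjusted p under 0.05, where 0.372% and 7.3% of all clusters did (at the adjusted threshold, 0.357% higher and 0.015% lower in treatment). The lower calls were 5 clusters, and there were 0 without control replicate 1, 1 without treatment replicate 2, 2 without control replicate 2 or 3, and 15 with an intensity trend in the prior. The lowest adjusted p by limma was 0.813, for TNPO3, and the standard errors ran from 0.189 to 0.235. With all 6 arrays, the 95% intervals, each taken for 1 gene alone, reached at most a 1.54-fold rise and a 1.58-fold fall. These limits need not hold without treatment replicate 3, where the highest estimate of the 10 was 0.34 ± 0.190 (SE), for CPSF6. Values are from bulk RNA, in which fewer cells with a transcript and less RNA per cell cannot be told apart.

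The same arrays held large differences elsewhere. Of 12 interferon-stimulated genes listed for reference, 11 had a cluster of their own, and all 11 rose (with a plain log2, with no offset, the call of BST2 ended at an adjusted p by limma of 0.0681), with log2 changes from 2.41 for the ubiquitin-like modifier ISG15 to 4.60 for OAS2, which makes the activator of RNase L. The background was taken as the 95th percentile of 360 olfactory receptor clusters (genes not expected in this line) on the same array. All 11 were above the background on the 3 treatment arrays. The controls of 4 (MX2, OAS2, IFI44 and BST2) were below it on every array, and OAS1 was above it on 1 and ISG15 on 2 control arrays. The size of these genes' log2 changes, and which gene is highest, therefore depends on the offset. With a plain log2, ISG15 was 2.71. The nuclear envelope protein MX2, which acts against HIV at the stage served by CPSF6 and the nucleoporins, had control values of 6.82, 9.54 and 15.3 and treatment values of 344, 729 and 699, and its log2 change was 4.45 ± 0.274 (SE; adjusted p by limma = 1.44e-06) with the offset of 16 and 5.81 with a plain log2, above the 5.23 of OAS2. Set against the background in place of its control values, MX2 was at least 10.1-fold higher in treatment. The upper ends of the cofactors' intervals reached 0.62, and the lower ends of the intervals of these 11 genes began at 1.92.

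**Figure D1:**
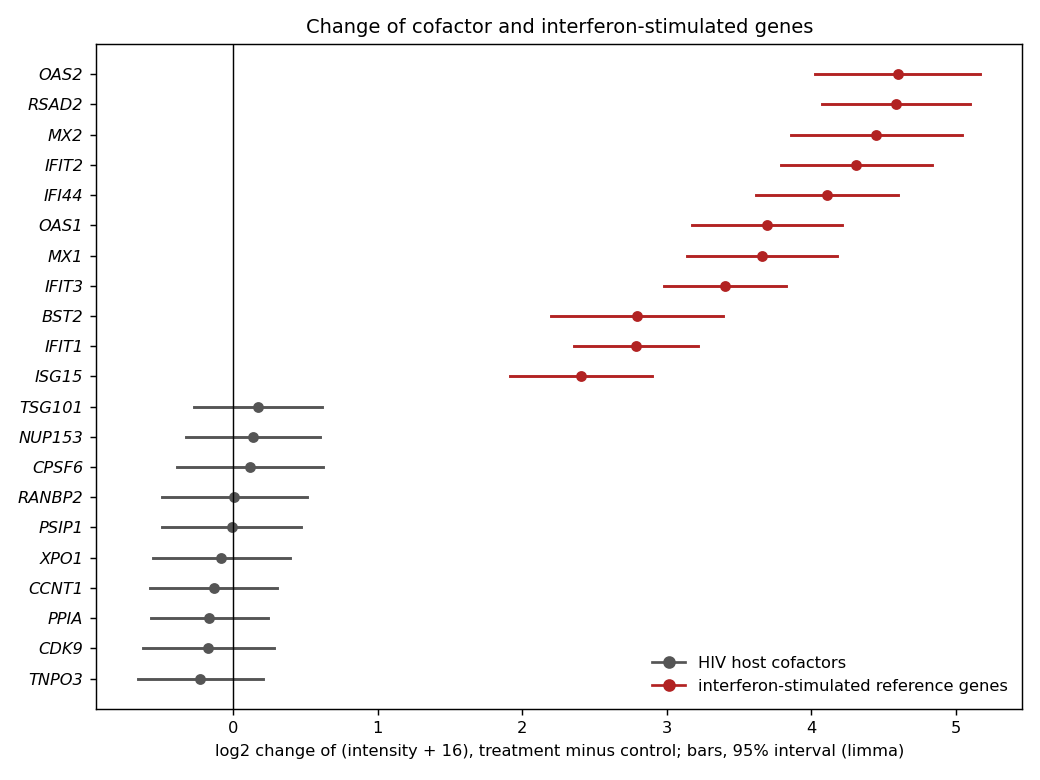
Log2 change of log2(intensity + 16), treatment minus control, with the 95% interval from limma, for the 10 cofactor genes (grey) and 11 interferon-stimulated reference genes (red). All 10 grey intervals include 0, and the red points lie between 2.41 and 4.60. That size depends on the offset for genes with dim controls. These are the 4 with controls below background on every array, and also OAS1 and ISG15, with controls below it on some. The points of PSIP1 and RANBP2 sit so near 0 that quantile normalization (PSIP1) or median centring (RANBP2) turns their sign.

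The promoters of both sets were searched for short motifs, among them a sequence that the interferon-activated factor ISGF3 is known to bind. RefSeq promoter windows (GRCh38.p14, 250 bases before to 50 after a start) were found for all 10 cofactor genes, 13 windows in all, and for 8 of the reference genes, also 13 windows. The core of the interferon-stimulated response element, searched as GAAA, then 2 bases of any kind, then GAAA, on either strand, was in 0 of the 13 cofactor windows and in 10 of the 13 reference windows, belonging to 7 genes, against 3.57% of all 35116 windows. A GC box, GGGCGG on either strand, was in 8 of the 13 cofactor windows, against 45% of all. It was also in 3 of the 13 reference windows, those of MX1 and RSAD2. CCAAT was in 4 of the 13 cofactor windows, against 34.6% of all. The ETS-type letters CCGGAAG were in 4 of the 13 cofactor windows, those of CCNT1, CDK9, TNPO3 and TSG101, against 10.3% of all. TATAAA was in 1, that of PPIA, against 11.5% of all, and matches of different motifs did not overlap in any cofactor window; a pair of GC box matches shared a base in 1 window, that of PPIA. For the response element, 0 of 13 cofactor windows is near the 3.57% of all windows, so it does not set the cofactors apart. The reference genes were listed for being interferon-stimulated, so their matches are no result of these data. A match is a description of the letters, not of binding. The part of these motifs in the changes was not tested.
Below are the bases directly before a start site, 5′ to 3′ on the gene's strand, for PPIA (chr7:44796431-44796680, plus strand), for XPO1 (chr2:61538357-61538506, minus strand) and, for contrast, for the reference gene IFIT1 (chr10:89392473-89392622, plus strand). Capitals mark GC boxes, CCAAT boxes and, in PPIA, TATAAA. In IFIT1 they mark only the response element, which occurs at 2 places. IFIT1 also holds a CCAAT box, left in lower case, and CCAAT was in 4 of the 13 reference windows. XPO1 has 2 RefSeq windows, and the one not shown holds none of these motifs. Nor do the windows of NUP153 and RANBP2 and a window each of PSIP1 and CCNT1. The PPIA and XPO1 windows shown hold more matches than any other cofactor window, so they are not typical of the set.
PPIA: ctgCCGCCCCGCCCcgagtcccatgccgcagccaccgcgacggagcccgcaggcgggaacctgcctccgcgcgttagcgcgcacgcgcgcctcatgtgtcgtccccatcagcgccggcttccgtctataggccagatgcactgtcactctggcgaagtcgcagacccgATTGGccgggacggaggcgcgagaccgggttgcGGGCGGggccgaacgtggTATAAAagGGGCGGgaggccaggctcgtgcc
XPO1: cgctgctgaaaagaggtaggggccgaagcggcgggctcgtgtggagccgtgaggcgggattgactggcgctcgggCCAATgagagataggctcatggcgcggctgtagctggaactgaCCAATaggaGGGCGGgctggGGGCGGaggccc
IFIT1: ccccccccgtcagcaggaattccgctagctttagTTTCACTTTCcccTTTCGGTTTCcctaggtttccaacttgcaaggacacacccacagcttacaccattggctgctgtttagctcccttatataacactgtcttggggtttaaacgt
IFIT1, an RNA-binding inhibitor of translation, had control values of 477, 488 and 587 and treatment values of 3308, 4001 and 3698, a log2 change of 2.79 ± 0.199 (SE). PPIA and XPO1, described below with the rest, gave -0.17 and -0.08 on the same scale, with 95% intervals that include 0.

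The array medians lay between 77.2 and 84.2 over all clusters, and all 10 cofactor genes were measured well above the dim end of the arrays. The lowest value of each cofactor was between 3.87 times (CCNT1) and 17.2 times (PPIA) the background of its array. Of 10 genes listed as marks of HEK293 cells, among them KRT8, KRT18, VIM and NEFM, 8 were above background on all arrays, while the leukocyte marker PTPRC was at 20.6 to 27.7 in control and 8.45 to 22.5 in treatment arrays, below background on each. The summed intensity of the 10 HEK293 genes was 8187 to 8796 in control and 7616 to 8182 in treatment arrays; that of 8 measured leukocyte genes, 3 of them above background on all arrays, was 465 to 616 in control and 499 to 687 in treatment arrays. Of 7 fibroblast genes, 1 was above background on all arrays and 4 were at or below it on every array. An unadjusted p under 0.05, which 7.3% of all clusters had, was found for 3 of the 7. PDGFRB (0.64) and COL1A2 (0.47) were higher and COL1A1 (-0.46) was lower, and at most 1 of these was above background on all arrays. The summed intensity of the 7 fibroblast genes was 484 to 683 in control and 469.6 to 584 in treatment arrays. Of 6 neuron genes, 2 were above background on all arrays and 0 had an unadjusted p under 0.05, with a sum of 517 to 775 in control and 604 to 695 in treatment arrays. In these 4 marker lists 0 genes passed limma, and PAX2, of the HEK293 list, had the lowest unadjusted p (0.76 ± 0.203; limma, adjusted p = 0.328). The part of these markers in the cofactors' values was not tested. Treatment replicate 3 stood farthest from the others, with a mean correlation of 0.963 with the other 5 arrays against 0.972 to 0.978 for those. Each cofactor gene is therefore given with and without that array, and with its range when the 6 arrays were left out in turn.

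PSIP1 encodes LEDGF, a chromatin-bound coactivator whose longer form holds HIV integrase on transcribed genes. Its values were 1031, 923 and 1102 in control and 1166, 1174 and 749 in treatment arrays. Treatment replicates 1 and 2 were above all controls and replicate 3 was below them, so the groups overlapped. The log2 change was -0.01 ± 0.224 (SE; 95% interval -0.49 to 0.47; limma, adjusted p = 0.996). It ran from -0.12 without treatment replicate 2 to 0.20 without treatment replicate 3, and was 0.05 without control replicate 3 and 0.014 after quantile normalization. A second cluster, which the annotation ties to another PSIP1 transcript, was also lowest in treatment replicate 3: 746, 824 and 906 in control and 930.4, 837 and 617 in treatment arrays (-0.07 ± 0.215; limma, adjusted p = 0.963). Which protein form each cluster reads is not stated in the annotation.

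Among the nuclear import cofactors, TNPO3, the importin that carries serine- and arginine-rich splicing proteins and CPSF6 into the nucleus, gave 427, 519 and 496 in control and 408, 459 and 359.8 in treatment arrays. It had the lowest estimate of the 10, but treatment replicate 2 lay above control replicate 1. The log2 change was -0.23 ± 0.201 (95% interval -0.66 to 0.20; limma, adjusted p = 0.813), and it ran from -0.31 without treatment replicate 2 to -0.14 without treatment replicate 3.

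CPSF6, a subunit of the mRNA 3′-end cleavage factor that also binds the HIV capsid, gave 915, 1132 and 1194 in control and 1426, 1312 and 845 in treatment arrays. The highest and the lowest of its 6 values were both treatment arrays. The log2 change was 0.12 ± 0.235 (95% interval -0.39 to 0.62; limma, adjusted p = 0.938). Without treatment replicate 3 it was 0.34 ± 0.190 (limma, adjusted p = 0.538), and without treatment replicate 1 it was -0.028.

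NUP153, a nucleoporin of the basket on the nuclear side of the pore, repeated that order of arrays: 1165, 1288 and 1413 in control and 1657, 1531 and 1106 in treatment. Its log2 change was 0.13 ± 0.216 (95% interval -0.33 to 0.60; limma, adjusted p = 0.916), and it ran from 0.019 without treatment replicate 1 to 0.31 without treatment replicate 3. RANBP2, the large nucleoporin of the cytoplasmic filaments, gave 667, 814 and 753 in control and 979, 776 and 546 in treatment arrays, the widest treatment spread of the 10 (coefficient of variation 28.3%). Its log2 change was 0.01 ± 0.233 (95% interval -0.49 to 0.51; limma, adjusted p = 0.998), 0.23 without treatment replicate 3, and -0.048 with each array centred on its median. Its sign also turned when other single arrays were left out: -0.07 for control replicate 1, -0.18 for treatment replicate 1 and -0.02 for treatment replicate 2. RANBP2 has near-identical copies in the RGPD genes. Another 8 clusters, holding 5 distinct sets of values, name RANBP2 together with RGPD genes, and their log2 changes ran from 0.01 to 0.12 with 0 passing limma and 0 at an unadjusted p under 0.05.

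CCNT1 and CDK9 encode cyclin T1 and its kinase, which form the elongation factor P-TEFb that the viral Tat protein recruits. CCNT1 gave 383, 330.3 and 438 in control and 379.6, 357 and 305 in treatment arrays, and its groups overlapped. Its log2 change was -0.14 ± 0.204 (95% interval -0.57 to 0.30; limma, adjusted p = 0.905). It was -0.050 without treatment replicate 3, and ran from -0.24 without control replicate 2 to -0.039 without control replicate 3. CDK9 gave 1001, 794 and 709 in control and 656, 719 and 829 in treatment arrays, and was the only cofactor whose value in treatment replicate 3 was the highest of its group. Its log2 change was -0.17 ± 0.210 (95% interval -0.63 to 0.28; limma, adjusted p = 0.876), and -0.26 without that array. It ran from -0.28 without control replicate 3 to -0.037 without control replicate 1. The subunits were apart on several arrays and in either direction. Relative to their control means, CCNT1 and CDK9 were at -0.31 and 0.01 in treatment replicate 3 and at 0.01 and 0.27 in control replicate 1. The order was the other way in treatment replicate 1 (-0.01 and -0.33) and control replicate 3 (0.19 and -0.22).

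PPIA encodes cyclophilin A, a peptidyl-prolyl isomerase that binds the HIV capsid. It was the only cofactor gene whose groups did not overlap: the controls were at 1571, 1569 and 1575 and the treatment arrays at 1423, 1422 and 1355. Groups that do not overlap with treatment lower occurred in 7.1% of all clusters, so 1 of 10 is near the background. The means were 1571 ± 3.30 and 1399.8 ± 39.2 (SD, n = 3), and the log2 change was -0.17 ± 0.189 (95% interval -0.57 to 0.24; limma, adjusted p = 0.864). It was -0.14 without treatment replicate 3, and between -0.18 and -0.16 without any other array.

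The limma error of PPIA is mostly borrowed from other clusters. Its own residual SD was 0.0285 on the log2 scale, while the moderated SD was 0.231, drawn towards a prior of 0.275. An exact two-sided permutation test of its 6 values, which uses no prior, gave p = 0.1, the smallest that 3 against 3 arrays can give, with 3 of 3 treatment arrays below the control range. That p restates that the groups do not overlap. The same test gave 0.2 to 1 for the other 9 genes. PPIA has many processed copies in the genome. Another 8 clusters, with 6 distinct sets of values, name PPIA beside PPIAL4 genes, and those clusters may read the same transcript in part. Their changes ran from -0.14 to 0.03, and 0 passed limma. They were brighter than the main cluster, with control means from 2573 to 4089. Treatment replicate 3 was the lowest array in 0 of the 8, unlike in the main cluster.

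TSG101, the ESCRT-I subunit that the viral Gag protein binds to leave the cell, gave 475, 428 and 426 in control and 533, 574 and 409.7 in treatment arrays. Again 2 treatment arrays were above all controls and replicate 3 was below them. The log2 change was 0.17 ± 0.205 (95% interval -0.27 to 0.61; limma, adjusted p = 0.873), and it ran from 0.075 without treatment replicate 2 to 0.31 without treatment replicate 3. XPO1, exportin 1, which carries Rev-bound viral RNA out of the nucleus, gave 1105, 887 and 1078 in control and 1156, 1030.3 and 743 in treatment arrays, which overlapped. Its log2 change was -0.08 ± 0.221 (95% interval -0.56 to 0.39; limma, adjusted p = 0.956), and it ran from -0.22 without treatment replicate 1 to 0.10 without treatment replicate 3.

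**Figure D2:**
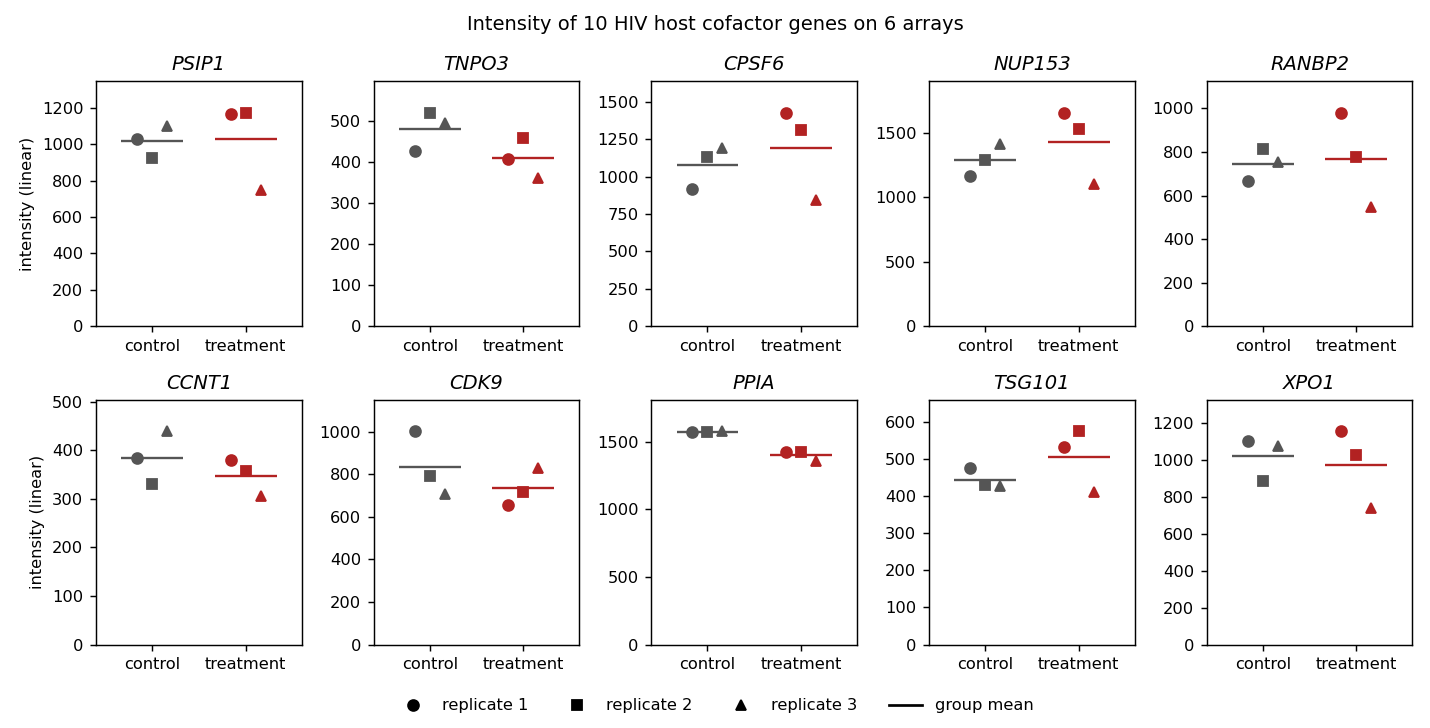
Linear intensity of each cofactor gene on the 3 control (grey) and 3 treatment (red) arrays, with the replicate given by the symbol and the group mean by a line; each axis starts at 0 and has its own scale. Only PPIA has groups that do not overlap, and treatment replicate 3 (red triangle) is the lowest of the 6 values in 9 of the 10 panels, all but CDK9.

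The spread among treatment arrays thus had a common shape. Treatment replicate 3 was the lowest of the 6 arrays for 9 of the 10 cofactor genes, against 29.2% of all clusters and 44% of the 6014 clusters within the cofactors' range of mean intensity (366 to 1486). Among the partner genes described next, 81 of 149 (54.4%) were lowest on that array, but the share differed between lists. It was highest in the other cyclophilins (73.3%) and the cleavage and polyadenylation genes (71.4%). The integration partners (27.3%) and the ESCRT genes (35.7%) had the lowest shares, below the 44% of clusters in that intensity range. Relative to each gene's control mean, the median cofactor was at 0.19 in treatment replicate 1, 0.04 in replicate 2 and -0.32 in replicate 3 on the log2 scale. The clusters of the same intensity range had medians of 0.05, -0.01 and -0.21 in those arrays. Without treatment replicate 3 the median change of the 10 genes was 0.15, of opposite sign to -0.05 with it, and 0 of the 10 passed limma either way; at an unadjusted p, CPSF6 had the lowest value without that array (0.103). That array also had the highest background, 78.8 against 52.4 to 58.9 on the other arrays, and the highest median over all clusters (84.2). The part of that array's own deviation in the cofactors' values was not tested.

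**Figure D3:**
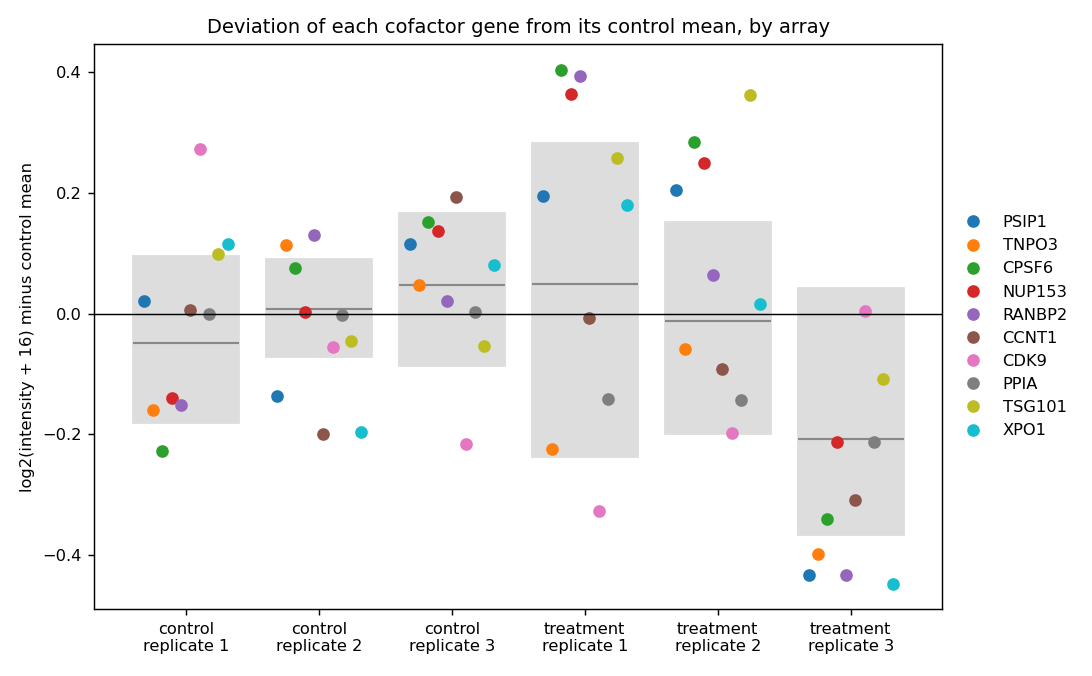
Deviation of log2(intensity + 16) of each cofactor gene (coloured points) from its own control mean on the 6 arrays; grey boxes span the middle quartiles, and grey lines the median, of the 6014 clusters in the same intensity range. In treatment replicate 3 the cofactors lie between -0.45 (XPO1) and 0.01 (CDK9), and in treatment replicate 1 between -0.33 (CDK9) and 0.40 (CPSF6).

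Partners of the cofactors at each step were followed in 9 lists with 149 measured genes. Of the 149, 0 passed limma over all clusters and 3 had an unadjusted p under 0.05, where 0.372% and 7.3% of all clusters did, so neither share was above that of all clusters. Their log2 changes ran from -0.71 to 0.42 with a median of -0.07. Groups did not overlap with treatment lower in 22 of these genes (14.8%) and with treatment higher in 2 (1.34%). Over all clusters these shares were 7.1% and 7.47%, and in the cofactors' intensity range 11% and 4.14%.

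For integration, 11 genes were measured, with a median change of -0.01. The chromatin remodeller SMARCB1, known as integrase interactor, gave 590.1, 702 and 599 in control and 452, 459.6 and 544 in treatment arrays (-0.37 ± 0.198; limma, adjusted p = 0.707), and the PSIP1-binding tumour suppressor MEN1 gave -0.35 ± 0.217. The 14 genes of the cleavage and polyadenylation machinery around CPSF6 had a median of -0.03. CSTF2, an RNA-binding subunit of the cleavage stimulation factor, gave 301, 293 and 274 in control and 223, 215 and 212 in treatment arrays (-0.39 ± 0.190, adjusted p = 0.696), without overlap, and the scaffold SYMPK gave -0.26 ± 0.202.

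Of the 16 nuclear import receptors related to TNPO3, 1 had an unadjusted p under 0.05, near the 7.3% of all clusters. That was IPO13, a bidirectional transport receptor, at 435, 500.1 and 426 in control and 302, 320.5 and 333 in treatment arrays (-0.49 ± 0.193; limma, adjusted p = 0.663). The list's median was 0.000503, and IPO4 gave -0.36 ± 0.200. The 24 other nuclear pore genes had a median of -0.13, 7 higher and 17 lower. Over all clusters 16035 of 33297 were lower, and clusters in the cofactors' intensity range had a median of -0.05. Relative to control means, the median pore gene was at 0.07, -0.08 and -0.33 in treatment replicates 1, 2 and 3. NUP133, of the outer ring of the pore, gave 674, 664 and 668 in control and 504, 565 and 452 in treatment arrays (-0.39 ± 0.194, adjusted p = 0.698), and NUP205, of the inner ring, gave -0.36 ± 0.190; neither had groups that overlapped.

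Around P-TEFb, 21 elongation genes had a median of -0.08. HEXIM1, which holds P-TEFb inactive, had the highest change of the 149 genes, from 401, 389 and 331 in control to 604, 611 and 348 in treatment arrays (0.42 ± 0.239; limma, adjusted p = 0.717), so treatment replicate 3 again lay apart from its group. Its relative HEXIM2 gave 0.31 ± 0.200, and EAF1, a partner of the elongation factor ELL, gave -0.35 ± 0.196. The 15 other cyclophilins had a median of 0.07. PPIC (cyclophilin C) gave 476, 595 and 608 in control and 849.7, 833 and 584 in treatment arrays (0.41 ± 0.218, adjusted p = 0.707), while the spliceosomal PPIH gave -0.33 ± 0.201.

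In the budding list, 28 genes of the ESCRT pathway had a median of -0.07. VPS28, which sits with TSG101 in ESCRT-I, gave 205, 223 and 209 in control and 135, 125 and 176 in treatment arrays, and its groups did not overlap (-0.51 ± 0.203; unadjusted p = 0.0245; limma, adjusted p = 0.663). TSG101 itself was at 0.17, so the 2 subunits of the complex had estimates of opposite sign, and neither passed. The ESCRT-III protein CHMP5 gave 722, 824 and 715 in control and 911, 1132 and 1005 in treatment arrays (0.42 ± 0.197, adjusted p = 0.69).

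The 18 genes of nuclear export and the Ran cycle had a median of -0.12, 6 higher and 12 lower, where 16035 of all 33297 clusters were lower. Relative to control means, the median gene of this list was at 0.08, -0.05 and -0.31 in treatment replicates 1, 2 and 3. NXT1, a partner of the mRNA export receptor, gave 522, 536 and 541 in control and 414, 403 and 408 in treatment arrays (-0.37 ± 0.188; limma, adjusted p = 0.698), and XPO7 gave -0.36 ± 0.190. Of the entry receptors, CXCR4 gave -0.18 ± 0.219 and CD4 was the third gene with an unadjusted p under 0.05 (-0.71 ± 0.223; limma, adjusted p = 0.522), but CD4 was within the background of olfactory receptor clusters on every array.

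**Figure D4:**
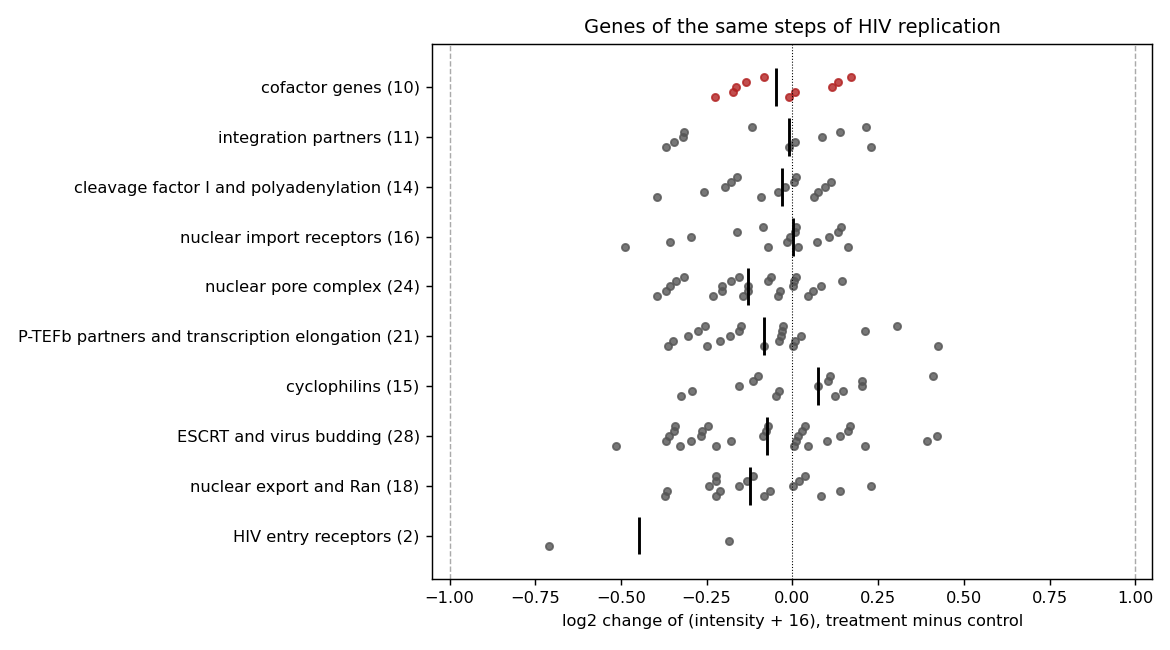
Log2 change of log2(intensity + 16), treatment minus control, of each measured gene in the cofactor list (red) and in 9 lists of partners (grey), with the number of genes in brackets and list medians as black bars; dashed lines mark 2-fold. On this scale no gene reaches a 2-fold change, but the size for CD4, within background on every array, depends on the offset. The cofactors lie between -0.23 and 0.17. The signs of PSIP1 and RANBP2, near 0, turn with quantile normalization or median centring.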

How the data were processed

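HEK293 RNA was hybridised to Affymetrix Gene 1.0 ST arrays. The intensities were made by the authors with Partek, per the submitters' processing notes. They were deposited on a linear scale, reaching 9794, with 1 value for each transcript cluster on each array, and no source used here states their background correction, normalization or probe summary. The platform annotation gave a single symbol to 19460 of 33297 clusters, and 11 of these carried the symbol of a cofactor gene (2 for PSIP1, of which the brighter is the main one). An offset of 16 was added before log2, so fold changes of dim clusters are understated. A limma 3.58.1 model (lmFit, eBayes, no block, two-sided, R 4.3.3) was fitted to all 33297 clusters together, adjusted by Benjamini-Hochberg over all of them and read at 0.05; it was tested on simulated data. Up to 3 genes with the lowest unadjusted p were named per partner list. The number of arrays limits the precision. The cofactor genes, the lists and the offset were chosen with earlier results of these data known, and the promoter motifs after these values were seen. No genome build is named for the array, so gene coordinates are not given. Alternatives were other offsets, normalizations, filters, priors and thresholds, a replicate block, averaging clusters of 1 gene, and omitting each array in turn.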

Additional observations from a re-analysis of the deposited data

How the results depend on the processing

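Under all 17 alternatives 0 of the 10 cofactor genes passed limma, and their lowest adjusted p was 0.538 (CPSF6 without treatment replicate 3); 0 genes of the 9 partner lists passed under any. Signs close to 0 turned: PSIP1 was 0.014 with quantile normalization, and RANBP2 -0.048 with each array centred on its median. Over the arrays left out in turn, PSIP1 ran from -0.12 to 0.20, CPSF6 from -0.028 to 0.34, RANBP2 from -0.18 to 0.23 and XPO1 from -0.22 to 0.10, while the other 6 kept their sign. The median of the 10 ran from -0.15 to 0.15, highest without treatment replicate 3. The number of clusters called over the whole table was 124, and 58 with an offset of 1, 40 with a plain log2, and 69 to 129 with 1 array left out (69 without control replicate 1, 82 without treatment replicate 2). Those lower in treatment were 5, and 0 to 15 over the alternatives. Whether replicate numbers pair the samples is not known. Deviations of same-numbered arrays from their group means correlated at -0.166, 0.0839 and -0.356 over clusters. For arrays of unlike number the values ran from -0.187 to 0.363. Deviations within a group of 3 depend on one another, so these values cannot decide it. With the replicate block, 105 clusters passed and the adjusted p of the cofactors was at least 0.956. With 3 arrays a group, changes within the 95% intervals given could not be told from 0.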
